A study of Mus musculus with 18 samples.

Results

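Whether the change of oocyte gene expression with NTY differed between follicle stages was examined as a single quantity per gene. It was the log2 fold change of NTY over sham in oocytes from primary follicles minus the same fold change in oocytes from primordial follicles, called here the log2 difference. A negative value means that NTY over sham was lower in primary than in primordial follicles. The comparison used 12 of the 18 libraries of the series, those of the primordial and primary stages, and 10522 of the 53715 genes in the count table passed the filter on low counts and were tested. The libraries and the contrast were defined by the sample labels, but the comparison was chosen with earlier results of these data known.

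The series profiled RNA from mouse oocytes of the cross C57Bl/6j x CBA/J, described as in vivo, at 3 stages and under sham or NTY. The labels do not say what NTY is, and they give no age. The 4 groups compared were oocytes from primordial follicles under sham, oocytes from primordial follicles under NTY, oocytes from primary follicles under sham and oocytes from primary follicles under NTY, with 3 libraries each. From the labelled protocol, these oocytes were read as cut out by laser capture, with the RNA of all caps of a stage pooled, amplified linearly and enriched for coding transcripts with an RNA Access kit. Nothing says that replicates came from separate animals, so the p-values measure only the spread between these libraries. The codes of primary NTY replicates 2 and 3 differ by a single added digit, and whether they come from separate material is not stated. MII oocytes were prepared by another library method and were left out.

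A primordial follicle holds a small arrested oocyte within a layer of flat pregranulosa cells. On activation these cells turn cuboidal and divide, and the oocyte starts to grow and to make its zona pellucida, which gives the primary follicle. Replication-dependent histone genes lie in clusters, are transcribed mainly in S phase in dividing cells, and make mRNAs that end in a stem-loop in place of a poly(A) tail, while oocytes also store histone mRNA.

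The single gene called, H2ac4, encodes a replication-dependent histone H2A. It lies in the large histone cluster of mouse chromosome 13, at chr13:23751126-23751598 on the plus strand of GRCm38 (the mm10 build), between H2bc3, an H2B gene, and H3c2, an H3 gene. The 250 bases before the RefSeq start of these 3 genes (GRCm38.p6, plus strand) are given because all 3 had a negative log2 difference. Capitals mark CCAAT or its reverse complement ATTGG and TATAAA or its reverse complement TTTATA, searched on both strands.

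H2bc3: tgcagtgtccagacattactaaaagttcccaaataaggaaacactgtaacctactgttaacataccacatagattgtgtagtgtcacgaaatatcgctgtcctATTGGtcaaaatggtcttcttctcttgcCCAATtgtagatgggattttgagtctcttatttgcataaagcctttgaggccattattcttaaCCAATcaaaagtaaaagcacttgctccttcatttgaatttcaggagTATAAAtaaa
H2ac4: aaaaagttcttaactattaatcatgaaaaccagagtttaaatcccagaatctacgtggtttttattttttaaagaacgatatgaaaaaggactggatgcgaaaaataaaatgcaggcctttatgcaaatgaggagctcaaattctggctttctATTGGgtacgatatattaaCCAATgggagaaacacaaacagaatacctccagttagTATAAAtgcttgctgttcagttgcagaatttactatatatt
H3c2: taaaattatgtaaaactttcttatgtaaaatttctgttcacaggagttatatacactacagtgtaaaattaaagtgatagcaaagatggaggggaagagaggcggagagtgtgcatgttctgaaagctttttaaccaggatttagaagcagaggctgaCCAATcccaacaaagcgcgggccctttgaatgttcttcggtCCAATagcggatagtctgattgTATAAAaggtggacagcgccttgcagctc

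These windows are chr13:23746484-23746733 for H2bc3, chr13:23750838-23751087 for H2ac4 and chr13:23752095-23752344 for H3c2. The H2ac4 window held CCAAT letters starting 97 and 78 bases before the start and TATAAA at 41 bases, H2bc3 held CCAAT letters at 147, 119 and 56 bases and TATAAA at 10 bases, and H3c2 held CCAAT letters at 92 and 51 bases and TATAAA at 29 bases. Among 32851 RefSeq promoter windows of this length, 33.8% held the CCAAT letters, 12.4% the TATAAA letters and 4.4% both. These are matches of letters only.

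Library totals lay between 15149564 and 29205503 counts, and the TMM factors that rescale them lay between 0.618 and 1.4. The common dispersion, the squared coefficient of variation between replicates in the negative binomial model, was 3.59. Counts of a gene often varied widely within a group, and 12.4% of the tested genes (1309) had no count in any library of at least 1 group. A total of 3 counts over a group, used as the floor where a group had none, was worth 0.0342 to 0.0469 CPM, the usual read count scaled to the library total, here with TMM factors. Floors and counting intervals cover counting error only, because amplified reads are not independent molecules.

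Primordial NTY replicate 3 stood apart from the other libraries in its cell type markers. Of 15 oocyte markers, 12 to 15 had more than 3 counts in each of the other 11 libraries, and 6 did in this library. Their summed level there was 6.69 CPM, against 232 to 1620 CPM elsewhere, and Zp1, Zp3, Lhx8, Ddx4 and Zar1 were among those with 3 counts or fewer. Its stroma markers summed to 21100 CPM and its granulosa markers to 6500 CPM, the highest of the 12 libraries for both lists. Primary NTY replicate 1 had 19000 CPM of stroma markers beside 890 CPM of oocyte markers. The label of oocytes was therefore matched by oocyte markers in 11 of 12 libraries, beside granulosa and stroma markers in all 12, and the results most dependent on primordial NTY replicate 3 are given without it too.

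**Figure D1:**
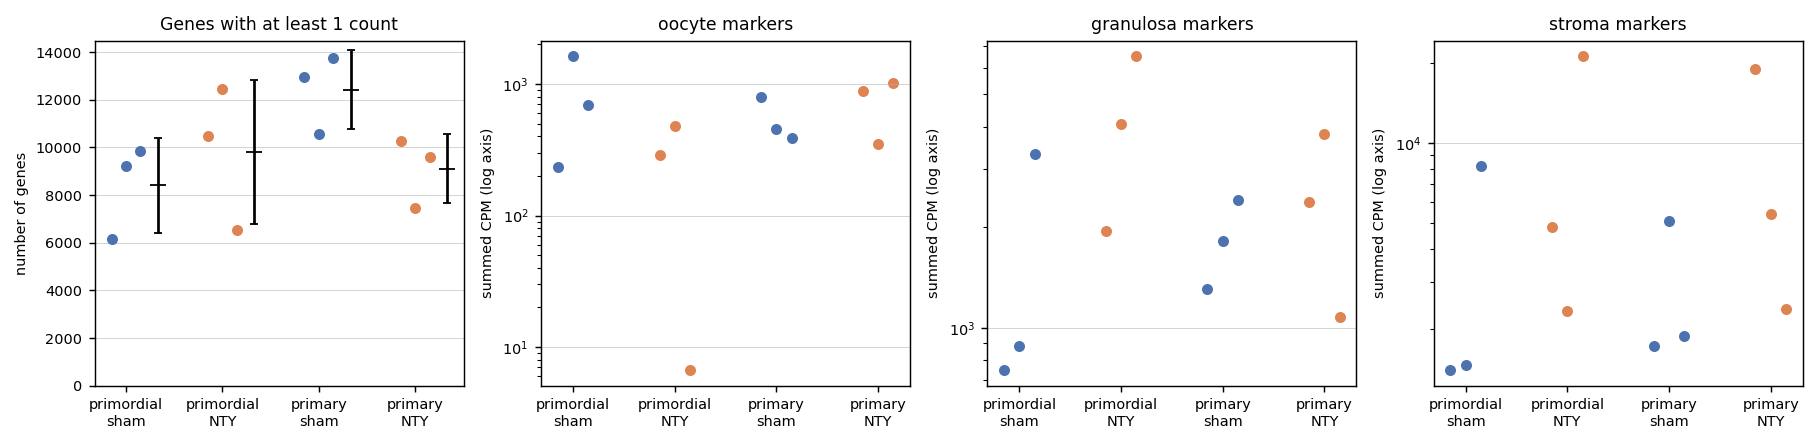
Number of genes with at least 1 count (left, with mean and SD beside the points) and summed CPM of oocyte, granulosa and stroma markers (log axes) in the 3 libraries of each group, sham in blue and NTY in orange, in replicate order from left to right. Primordial NTY replicate 3 lies lowest for oocyte markers at 6.69 CPM, and its 6524 genes lie near the 6147 of primordial sham replicate 1.

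Oocytes from primordial follicles yielded more genes under NTY than under sham on average, and oocytes from primary follicles fewer. Genes with at least 1 count numbered 6147, 9229 and 9852 in primordial sham (8409 ± 1984, SD, n = 3) and 10493, 12461 and 6524 in primordial NTY (9826 ± 3024, SD, n = 3). In primary follicles they numbered 12955, 10565 and 13755 under sham (12425 ± 1660, SD, n = 3) and 10255, 7474 and 9611 under NTY (9113 ± 1456, SD, n = 3). The primordial groups overlapped, whereas every primary NTY library lay below every primary sham library. The changes of the mean were 1417 and -3312 genes, so that they differed by -4728 genes (SE 2446), with an exact two-sided permutation p of 0.07 over 400 arrangements within stages, where 0.005 is the smallest possible. Without primordial NTY replicate 3 the difference was -6379 genes, with an exact permutation p of 0.01. With any other single library left out, the exact permutation p lay between 0.055 and 0.205. In such bulk samples, fewer cells of a type and less RNA per cell cannot be told apart.

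Across the 10522 genes, 1 gene passed the test of the difference, H2ac4, with a negative log2 difference (0.0095% of the genes tested). No gene passed with a positive log2 difference (0%). These calls use edgeR's quasi-likelihood test with a Benjamini-Hochberg adjusted p under 0.05. At an unadjusted p under 0.05 there were 1246 genes (11.8%), 238 with a positive difference (2.26%) and 1008 with a negative one (9.58%). DESeq2 called 1216 genes on the same counts and limma voom 6.

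The median log2 difference over all tested genes was -0.56, and 44.0% of the genes had a positive value. This median moved with the scaling, to -0.28 with RLE factors and -1.03 with plain library totals, so values of gene lists are given beside it. It was 0.21 when restricted to 1349 genes that reached 10 counts throughout the 12 libraries. Within stages, the median log2 fold change of NTY over sham was 0.12 in primordial and -0.10 in primary follicles. As a description across genes, which are not independent replicates and share their libraries, the fold changes of the stages had a Pearson r of -0.0198 and a Spearman coefficient of -0.00488.

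**Figure D2:**
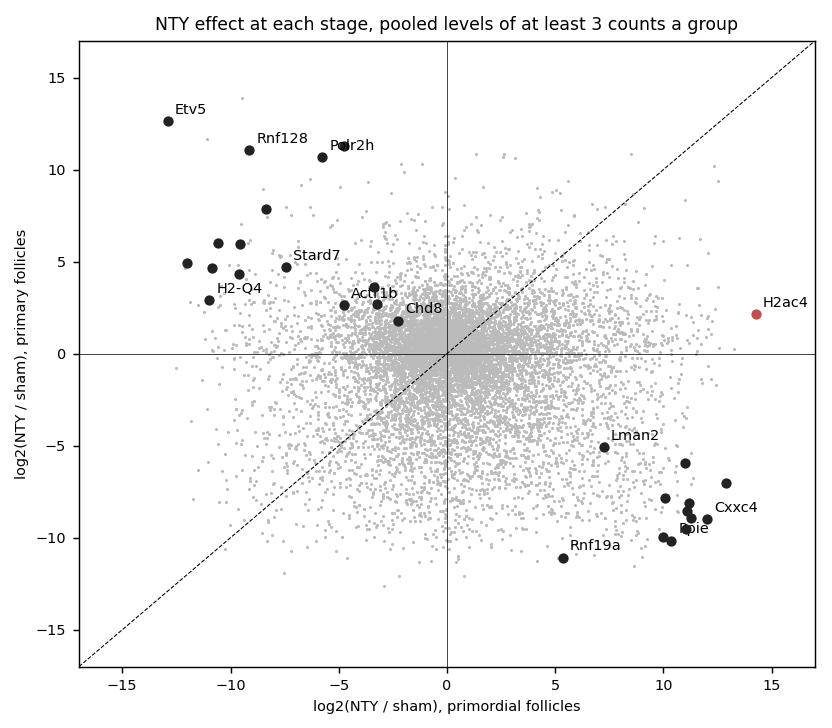
Log2 ratio of NTY over sham from pooled CPM, with levels of at least 3 counts a group, in primordial (x axis) and primary (y axis) follicles for the 10522 genes tested (grey), with named genes in black and H2ac4 in red. The dashed line marks equal effects, and H2ac4 lies far below it at 14.26 and 2.15.

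H2ac4 was near absent in oocytes of primordial sham follicles and abundant in the other 3 groups. Its read counts in replicates 1 to 3 were 2, 3 and 1 in primordial sham against 2031, 5597 and 115805 in primordial NTY. They were 3115, 15407 and 2279 in primary sham and 9238, 39332 and 18871 in primary NTY. All primordial NTY libraries lay far above all primordial sham libraries, and the primary groups overlapped, since primary sham replicate 2 exceeded primary NTY replicate 1.

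On the log2(CPM + 1) scale the levels of H2ac4 were 0.13 ± 0.06 in primordial sham and 8.97 ± 3.34 in primordial NTY (SD, n = 3). They were 7.38 ± 1.75 in primary sham and 9.81 ± 1.23 in primary NTY (SD, n = 3). As ratios of pooled CPM, H2ac4 was 19600-fold higher under NTY in primordial follicles (95% counting interval 8980 to 53300) and 4.43-fold higher in primary follicles (4.36 to 4.50). Both ratios point the same way, so the log2 difference is one of size and not of direction.

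The fitted log2 difference of H2ac4 was -12.53 (approximate SE 2.33), with a p of 2.26e-06 and an adjusted p of 0.0238 in edgeR's quasi-likelihood test with Benjamini-Hochberg adjustment. Over 20 alternative settings the log2 difference lay between -13.63 and -7.80, never above 0, and the adjusted p lay between 5.83e-05 and 0.361, at or over 0.05 in 6 of them. Without primordial NTY replicate 3, which held 115805 of the reads and few oocyte marker reads, the log2 difference was -8.27 with an edgeR adjusted p of 0.18. Without primary NTY replicate 3 the edgeR adjusted p was 0.0659, and with primary NTY replicates 2 and 3 summed it was 0.0529.

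Reads of H2ac4 could not be assigned with certainty. Of its 424 windows of 50 bases, 58.0% occur unchanged in transcripts of other genes, among them H2ac13, H2ac7 and H2ac12, and how the counting treated reads that match several genes is not given in the sources used here. H2ac13 had counts of 0, 4 and 0 in primordial sham, 12024, 10282 and 2 in primordial NTY, 6661, 703 and 17 in primary sham and 28557, 7 and 3 in primary NTY. Its log2 difference was -9.93 (SE 3.81), with an edgeR adjusted p of 0.248. Primordial NTY replicate 3 and primary NTY replicates 2 and 3, which were rich in H2ac4, held 2, 7 and 3 reads of H2ac13. The H2A gene H2ac15, given further below, was by contrast rich in reads in these same libraries. Windows of H2ac4 occur in 48 other genes, and their part in its reads was not tested.

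The neighbours H2bc3 and H3c2 had negative log2 differences that did not pass the test. Of their 50-base windows, 40.1% and 60.4% occur in transcripts of other genes, so their reads too could not be assigned with certainty. H2bc3 had counts of 1, 436 and 3 in primordial sham, 19, 14165 and 2 in primordial NTY, 7217, 23819 and 18370 in primary sham and 1240, 0 and 7 in primary NTY. All primary NTY libraries lay below all primary sham libraries for H2bc3, whose log2 difference was -9.99 (SE 3.81, edgeR adjusted p 0.246). H3c2 had 1, 333 and 0 reads in primordial sham, 5814, 2890 and 23601 in primordial NTY, 5965, 8715 and 4296 in primary sham and 4080, 2 and 4975 in primary NTY. Its primordial groups did not overlap and its primary groups did, with a log2 difference of -8.03 (SE 3.23, edgeR adjusted p 0.276).

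Farther neighbours within the same stretch of the cluster had smaller values, with log2 differences of -4.94 for H3c3, 0.00 for H1f2, 1.27 for H4c2, -0.20 for H4c1, 1.85 for H3c1 and 1.62 for H1f1. Their edgeR adjusted p-values lay between 0.589 and 1. H1f2 encodes a linker histone, and its difference had the smallest SE of these genes, 1.22. The share of 50-base windows that occur in other genes was 40.4% to 75.9% for the H3 and H4 genes, and 8.54% for H1f2.

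**Figure D3:**
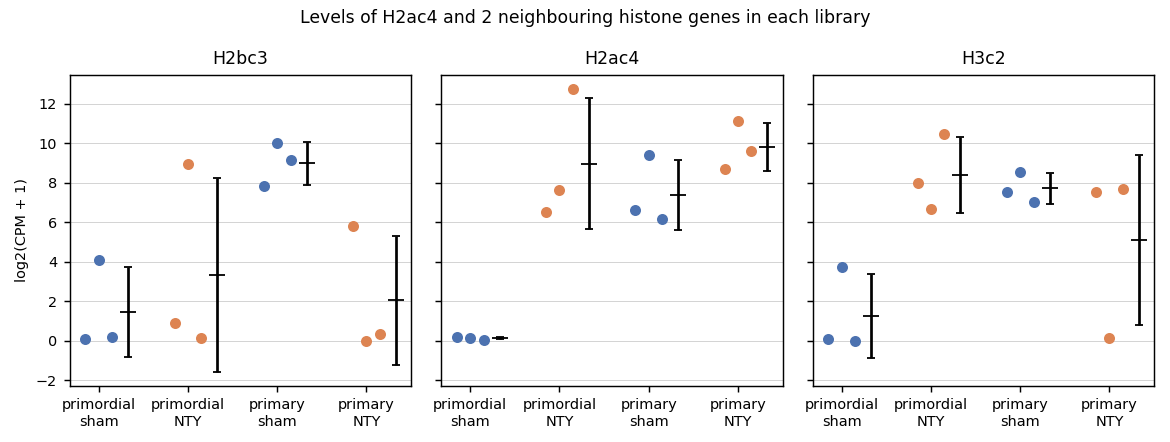
Level as log2(CPM + 1) of H2bc3, H2ac4 and H3c2 in each library (points, sham in blue and NTY in orange, replicates in order from left to right), with mean and SD of the 3 libraries beside them. The 3 primordial sham libraries of H2ac4 average 0.13, against 8.97 in primordial NTY, 7.38 in primary sham and 9.81 in primary NTY.

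Of 66 replication-dependent histone genes, 54 were tested, 24 with a positive and 30 with a negative log2 difference, and 1 was called. Their median was -0.56, equal to that of all genes, but the values spread widely. An unadjusted p under 0.05 was reached by 11 of the 54, all with a negative difference, against 9.58% of all tested genes on that side. Their median was -0.94 without primordial NTY replicate 3, with 26 positive and 31 negative among 57 tested.

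The other 10 of these histone genes were Hist1h2br, H2ac15, H2bc15, H2bc3, H2ac13, H4c11, H3c2, H3c4, Hist1h2ap and H2ac8. H2ac15, an H2A gene, had 28, 5 and 1 reads in primordial sham, 2, 26048 and 68198 in primordial NTY, 7577, 1922 and 23520 in primary sham and 895, 35509 and 42442 in primary NTY. Its log2 difference was -9.42 (SE 2.53, edgeR adjusted p 0.153). H3c4, an H3 gene, had 0, 2 and 1 reads in primordial sham against 591, 3061 and 84 in primordial NTY, and 1813, 2217 and 5188 in primary sham against 10, 1201 and 10828 in primary NTY. Both genes had at most 28 reads in every primordial sham library, and the primary groups of both overlapped. The list as a whole was not near absent there. Its summed level was 11300 to 12400 CPM in primordial sham and 6160 to 31900 CPM in primordial NTY, which overlapped. It was 7840 to 23900 CPM in primary sham and 19700 to 23100 CPM in primary NTY. At the other end H2bc1, an H2B gene known from the testis, had a log2 difference of 9.35 (SE 4.75, edgeR adjusted p 0.438).

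By the naming rule, 24 genes had the smallest p-values of the difference, 12 on each side, among 6399 genes with a mean of at least 10 CPM and a proper symbol. Apart from H2ac4 none of them passed the test, and their edgeR adjusted p-values lay between 0.114 and 0.178. On the negative side 9 of 12 had a group with no counts, always primary NTY, and 7 of these 9 had none in primordial sham either. On the positive side 5 of 12 had a group with no counts. Among all tested genes, 112 had no count in both primordial sham and primary NTY, and 4 had none in both primary sham and primordial NTY.

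Of the negative side, 7 genes had reads in primordial NTY and primary sham libraries and none in the other groups. Cxxc4, known as an inhibitor of Wnt signalling, had 856, 2 and 12059 reads in primordial NTY and 1672, 2 and 421 in primary sham, with 0 in all other libraries. It was at least 4090-fold higher under NTY in primordial follicles and at least 511-fold lower under NTY in primary follicles, against the floor of 3 counts over the group. Its groups did not overlap at either stage, and its edgeR adjusted p was 0.153. Most of its primordial NTY reads came from replicate 3, without which the edgeR adjusted p was 0.18.

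Ppie, a cyclophilin found in the spliceosome, had 7, 4130 and 16 reads in primordial NTY and 294, 293 and 4108 in primary sham, and 0 elsewhere. Abca4, a transporter known from photoreceptors, had 254, 433 and 2738 reads in primordial NTY and 21, 24 and 880 in primary sham, and 0 elsewhere. Both genes were thus detected in all 6 libraries of these groups and in no library of the other 2 groups, at edgeR adjusted p-values of 0.153. Without primordial NTY replicate 3, which held most of the Abca4 reads of its group, the edgeR adjusted p was 0.18 for both.

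Ercc2, a helicase of transcription factor TFIIH that acts in DNA repair, had 0, 6 and 0 reads in primordial sham, 6, 119 and 14614 in primordial NTY, 16, 441 and 670 in primary sham and 0 in primary NTY. Of its 50-base windows, 29.1% occur in transcripts of other genes, mainly the overlapping Klc3 and Gm26852. Its primordial NTY reads lay almost wholly in replicate 3, without which the fitted edgeR p was 0.00428 and the adjusted p 0.181. Pgap2, which acts on GPI anchors, had 0, 1 and 1 reads in primordial sham against 944, 1546 and 3917 in primordial NTY. In primary follicles it had 4814, 1696 and 126 reads under sham against 0, 0 and 80 under NTY. Pgap2 was 3040-fold higher in primordial follicles (95% counting interval 843 to 25100) and 60.7-fold lower in primary follicles (48.7 to 76.7), with an edgeR adjusted p of 0.153.

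Lman2, a lectin that carries glycoproteins from the endoplasmic reticulum, was the negative gene with more than 3 counts in all 12 libraries. Its counts were 8, 30 and 263 in primordial sham, 3976, 4362 and 39427 in primordial NTY, 6404, 2764 and 4669 in primary sham and 33, 5 and 259 in primary NTY. The groups did not overlap at either stage. On the log2(CPM + 1) scale its level was 1.81 ± 1.71 in primordial sham, 8.66 ± 2.22 in primordial NTY, 7.24 ± 0.37 in primary sham and 1.74 ± 1.64 in primary NTY (SD, n = 3). Its log2 difference was -12.79 (SE 3.26, edgeR adjusted p 0.153), and -10.26 with an adjusted p of 0.223 without primordial NTY replicate 3. Lman2 lies at chr13:55343833-55362783 on the minus strand, away from the histone cluster.

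Of the remaining negative genes, Kcnq5, a potassium channel subunit, and Ihh, the ligand Indian hedgehog that granulosa cells are known to make, had reads in 2 of 3 libraries of primordial NTY and of primary sham. Ihh had 5655, 2212 and 0 reads in primordial NTY and 8, 0 and 1996 in primary sham, and 0 elsewhere. Ntrk3, the receptor of neurotrophin 3, had 238, 3000 and 0 reads in primordial NTY, 418, 2630 and 1082 in primary sham and 1 read elsewhere.

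Like Cxxc4, Ercc2, Abca4, Pgap2, Lman2 and H2ac4, the genes Ier5, Vav3 and Rnf19a took most of their primordial NTY reads from replicate 3, the library poor in oocyte markers. Ier5, an immediate early gene, had 0, 45 and 24005 reads there, and Rnf19a, a ubiquitin ligase, had 194, 4901 and 23004. Vav3, a guanine nucleotide exchange factor, had 0, 0 and 6961 reads there. Without that library the unadjusted edgeR p of Vav3 was 1, of Ier5 0.00343 and of Rnf19a 0.00554, with adjusted p-values of 1, 0.18 and 0.183. The fitted log2 differences stayed negative, for example -13.65 for Rnf19a, and Vav3 then had no read in primordial NTY.

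On the positive side Etv5, an ETS transcription factor, had the smallest p after H2ac4. Its counts were 7, 1 and 21976 in primordial sham, 0, 0 and 1 in primordial NTY, 0, 1 and 0 in primary sham and 320, 1 and 13599 in primary NTY. Single libraries held nearly all of its reads, and its groups touched at 1 count at both stages. Etv5 was 23100-fold lower under NTY in primordial follicles (95% counting interval 4150 to 914000) and 19000-fold higher in primary follicles (3410 to 751000), at an edgeR p of 2.16e-05 and an adjusted p of 0.114. In 8 of 20 alternative settings it passed the threshold, and its adjusted p ranged from 1.21e-08 to 0.611. Of its 50-base windows, 24.5% occur in the transcript of Gm4798.

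Of the other positive genes, Stard7, a transfer protein for phosphatidylcholine, had more than 3 counts in 11 libraries, with 11605, 83 and 9620 in primordial sham, 55, 70 and 2 in primordial NTY, 652, 86 and 68 in primary sham and 43, 15 and 15369 in primary NTY. Tspan5, a tetraspanin, had 638, 12872 and 2974 reads in primordial sham against 1, 21 and 0 in primordial NTY, and 552, 117 and 34 in primary sham against 1843, 0 and 8454 in primary NTY. The primordial groups of Tspan5 did not overlap and the primary groups did. The edgeR adjusted p was 0.162 for Stard7 and 0.17 for Tspan5.

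Rnf128, a ubiquitin ligase, Gnaz, a G protein alpha subunit, and Pde4d, a cAMP phosphodiesterase, had no count in primordial NTY, and Rnf128 and Gnaz had none in primary sham either. Pde4d took 11938 of its primordial sham reads from replicate 1. Polr2h, a subunit of the RNA polymerases, Gtf3c5, a subunit of transcription factor TFIIIC, and Hmga1b, a DNA-binding protein of chromatin, had most of their primordial sham reads in replicate 2, with 8889, 930 and 58 reads. For Hmga1b, 89.0% of the 50-base windows occur in other genes, chiefly Hmga1. B3gat3, an enzyme of glycosaminoglycan synthesis, had 7000 reads in primary NTY replicate 1. Ntan1, an amidase of the N-end rule pathway, had 5893, 371 and 20 reads in primary NTY against 2, 8 and 128 in primary sham.

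**Figure D4:**
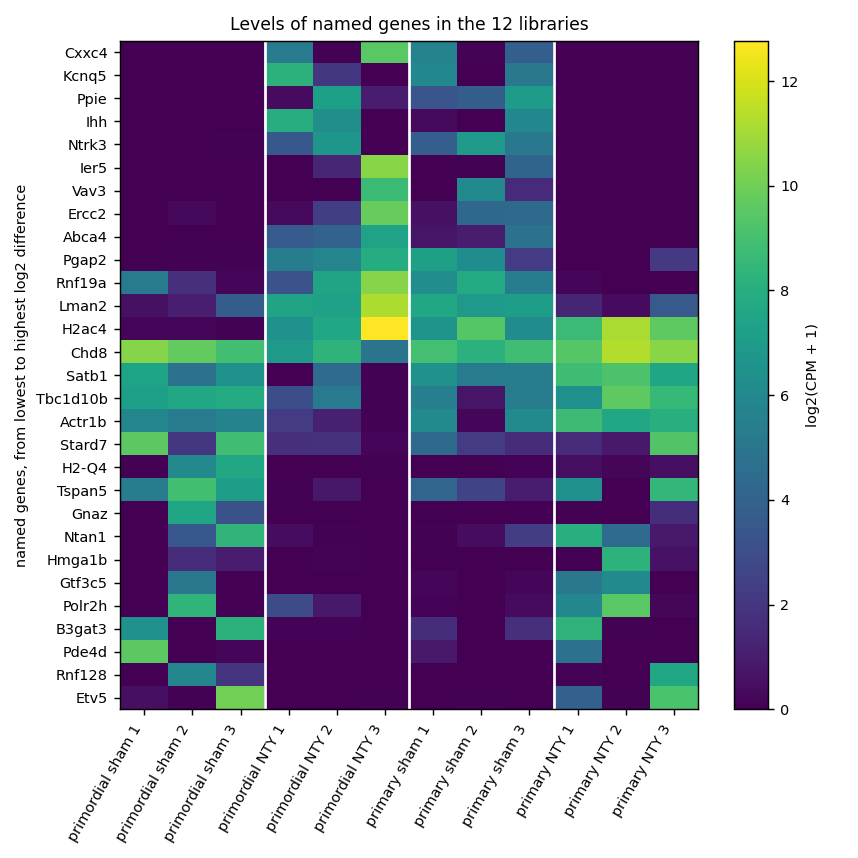
Level as log2(CPM + 1) (colour) of named genes (rows, from lowest to highest log2 difference from pooled levels) in the 12 libraries (columns, white lines between groups). Genes of the upper rows, such as Cxxc4, are dark in primordial sham and primary NTY, and Chd8 and H2ac4 are bright in all of the last 6 columns.

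Some genes had NTY and sham libraries that did not overlap at either stage, with opposite directions. For 67 genes (0.637% of those tested) all NTY libraries lay above all sham libraries in primordial follicles and below them in primary follicles, and for 9 genes (0.0855%) the order was the reverse. In the same direction at both stages, 14 genes (0.133%) lay above and 30 (0.285%) below. Within single stages, 572 genes (5.44% of those tested) lay above and 312 (2.97%) below in primordial follicles. In primary follicles 239 genes (2.27%) lay above and 1221 (11.6%) below. Unrelated changes at each stage would also give genes of every such pattern. Whether the opposite counts exceed what these single-stage shares would give was not tested, so they are no evidence of reversed effects. Without primordial NTY replicate 3, where 2 libraries face 3, the opposite counts were 199 and 15.

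Of the genes with opposite directions, 11 are named here, and 8 of the 11 also had no overlap with plain library totals, the exceptions being Chd8, Satb1 and H2-Q4. Among the 9 genes of the reverse order, Chd8, a chromatin remodeller that binds beta-catenin, had 21807, 23153 and 9978 reads in primordial sham against 2680, 8741 and 483 in primordial NTY. In primary follicles it had 16001, 6477 and 14997 reads under sham and 15016, 44473 and 35132 under NTY. Its primary groups did not overlap with TMM factors but did with plain library totals, where sham replicate 1 lay above NTY replicate 1. Its levels on the log2(CPM + 1) scale were 9.69 ± 0.77 under sham and 6.70 ± 1.70 under NTY in primordial follicles, and 8.65 ± 0.45 under sham and 10.40 ± 0.96 under NTY in primary follicles (SD, n = 3).

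Chd8 was 4.86-fold lower under NTY in primordial follicles and 3.45-fold higher in primary follicles, with a log2 difference of 4.47 (SE 1.86, p 0.0205 and adjusted p 0.296 in edgeR's quasi-likelihood test). It did not pass the threshold in any of its 22 alternatives, whose adjusted p ranged from 0.0526 to 0.93. Its log2 difference was 4.22 without primordial NTY replicate 3. Chd8 lies at chr14:52198151-52257780 on the minus strand.

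Satb1, which organises chromatin loops, had 2671, 726 and 1948 reads in primordial sham, 0, 599 and 1 in primordial NTY, 2953, 892 and 1342 in primary sham and 10043, 10351 and 4447 in primary NTY. Tbc1d10b, an activator of Rab GTPases, had 2282, 5294 and 4742 reads in primordial sham, 167, 1065 and 1 in primordial NTY, 1424, 15 and 1351 in primary sham and 1856, 13741 and 9261 in primary NTY. Actr1b, a subunit of dynactin, had 901, 1074 and 1054 reads in primordial sham, 83, 33 and 1 in primordial NTY, 2150, 4 and 2152 in primary sham and 9725, 3405 and 6394 in primary NTY. Each of these 3 genes had 1 read in primordial NTY replicate 3, the library poor in oocyte markers, and their groups did not overlap with TMM factors. With plain library totals the primordial groups of Satb1 overlapped.

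The log2 differences were 6.59 for Satb1 (SE 3.41), 7.49 for Tbc1d10b (SE 3.32) and 7.64 for Actr1b (SE 3.68), at edgeR adjusted p-values of 0.451, 0.34 and 0.4. H2-Q4, an MHC class I gene of the Q region, was separated only by the scaling of single reads, and 36.4% of its 50-base windows occur in other genes. It had 1, 1755 and 4060 reads in primordial sham, 1 read in primordial NTY, and at most 11 reads in any primary library.

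Granulosa cells surround the oocyte in the follicle. Of 14 granulosa genes 12 were tested, 2 with a positive and 10 with a negative log2 difference, and none passed the test. Their median log2 difference was -5.20, or -4.64 with levels of at least 3 counts a group, against -0.56 and -0.47 over all genes. The median log2 ratio of NTY over sham was 2.42 in primordial and -1.66 in primary follicles. Without primordial NTY replicate 3 the counts were again 2 and 10, and the median was -4.65. Over all tested genes 44.0% had a positive value. The median less that of all genes stayed below 0 in the 23 alternatives, from -5.14 to -1.67. These reuse the same libraries, and the list was chosen with earlier results of these data known, so this is no separate support.

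Inha, the alpha subunit of inhibin, had 0, 379 and 946 reads in primordial sham against 12042, 13831 and 22265 in primordial NTY, with no overlap. In primary follicles it had 6712, 2041 and 18330 reads under sham and 2886, 5950 and 5267 under NTY, which overlapped. Its log2 difference was -5.65 (SE 2.61), with an edgeR p of 0.0354 and an adjusted p of 0.364. Gja1, the gap junction protein connexin 43, showed the same order, with 2029, 1836 and 3660 against 18627, 15507 and 27634 reads in primordial follicles and 18047, 4509 and 26724 against 11054, 6854 and 14023 in primary follicles. The log2 difference of Gja1 was -3.14 (SE 1.99, edgeR adjusted p 0.588).

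Fst, the activin-binding protein follistatin, had 0, 2014 and 5 reads in primordial sham, 4814, 3825 and 0 in primordial NTY, 3252, 0 and 9134 in primary sham and 1, 6 and 0 in primary NTY. The log2 difference of Fst was -12.16 (SE 4.89, edgeR p 0.0166, adjusted p 0.276). Nr5a1, a nuclear receptor of steroidogenic cells, had 530, 1509 and 1950 reads in primary sham against 20, 115 and 49 in primary NTY, without overlap, and 1, 26 and 125 against 333, 1971 and 32 in the primordial groups, with overlap. Hsd17b1, which makes estradiol, had no count in primordial sham and at most 35 counts in any library, with an edgeR p of 0.031 and an adjusted p of 0.351.

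Not all members of the granulosa list had a negative value. Foxl2, a transcription factor of granulosa cells, had a positive log2 difference of 2.92 (SE 2.81), and Wt1 had 0.08 (SE 1.64), in edgeR with adjusted p-values of 0.796 and 1. Kitl, the ligand of the oocyte receptor Kit, had a log2 difference of -5.75 (SE 4.16) and Amh, which restrains follicle recruitment, -4.75 (SE 3.82). Fshr, the FSH receptor, was not tested, with 355 and 3 reads in primordial NTY replicates 1 and 2 and 0 in every other library. The summed level of the list was 750 to 3330 CPM in primordial sham, 1970 to 6510 in primordial NTY, 1330 to 2480 in primary sham and 1090 to 3830 in primary NTY.

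Most genes of the oocyte itself had a positive log2 difference. All 17 genes of oocyte growth were tested, 16 with a positive and 1 with a negative log2 difference, and none had an unadjusted p under 0.05. Their median log2 difference was 1.69 against -0.56 over all genes, with a median log2 ratio of NTY over sham of -1.74 in primordial and -0.05 in primary follicles. It was 1.46 without primordial NTY replicate 3, again with 16 positive. These genes share the same oocytes and libraries, so the number of like signs does not count independent genes. Of the oocyte growth list, 1 of 23 alternatives gave a median at 0, and relative to all genes none fell to 0 or below. As for the granulosa list, this is no separate support.

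Gdf9, a growth factor secreted by the oocyte, had 32, 7061 and 5 reads in primordial sham, 32, 1564 and 4 in primordial NTY, 2081, 1057 and 2206 in primary sham and 34, 974 and 2479 in primary NTY. Gdf9 had a log2 difference of 2.01 (SE 3.79). Zp2 and Zp3, of the zona pellucida, had log2 differences of 1.99 (SE 3.87) and 1.99 (SE 3.91). Sohlh1, a transcription factor of early oocytes, had 0, 72 and 29 reads in primordial sham, 5, 0 and 0 in primordial NTY, 8, 5 and 0 in primary sham and 45, 1 and 33 in primary NTY, and a log2 difference of 6.93 (SE 3.75, edgeR adjusted p 0.491). The SE exceeded the value for most genes of the list.

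Of 12 germ cell genes 11 were tested, 10 with a positive value, at a median log2 difference of 2.36. Mael, which acts in the piRNA pathway, had 12, 3660 and 2508 reads in primordial sham against 20, 1 and 2 in primordial NTY, and 2308, 420 and 545 in primary sham against 779, 825 and 982 in primary NTY. For Mael the log2 difference was 8.10 (SE 4.18, edgeR p 0.0587, adjusted p 0.449). Foxo3, which holds primordial oocytes dormant, had 12463 to 94231 reads in the 12 libraries and a log2 difference of 0.20 (SE 1.5).

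The medians of the oocyte and granulosa lists had opposite signs, whereas their summed levels overlapped between sham and NTY at both stages. Oocyte growth genes summed to 232, 829 and 390 CPM in primordial sham, 282, 324 and 9.52 in primordial NTY, 472, 328 and 289 in primary sham and 578, 220 and 463 in primary NTY. The part of tissue around the captured oocytes in the other differences was not tested.

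Stroma genes were tested in 10 of 10 cases, 6 positive and 4 negative, with a median log2 difference of 0.79, or 0.86 with 8 positive and 2 negative without primordial NTY replicate 3. Mfap4, a protein of elastic fibres, had 0, 5 and 0 reads in primordial sham, 2549, 64 and 0 in primordial NTY, 840, 154 and 26 in primary sham and 2, 0 and 2 in primary NTY, with an edgeR p of 0.00478 and an adjusted p of 0.189. Col1a1, a collagen chain, had a log2 difference of 0.58 (SE 1.34). Of 10 blood and endothelium genes, 3 passed the filter on low counts, 1 with a positive and 2 with a negative log2 difference at a median of -2.19 (1.13 over 5 genes without primordial NTY replicate 3), and at most 4 of the 10 had more than 3 counts in any library.

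**Figure D5:**
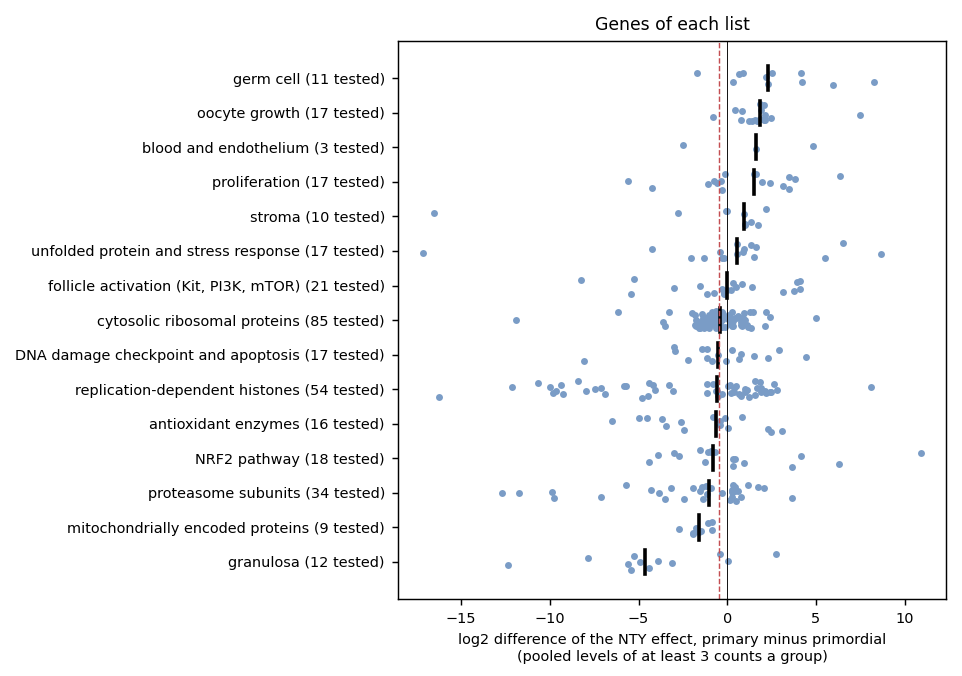
Log2 difference of the NTY effect, primary minus primordial, from pooled levels of at least 3 counts a group (x axis), for the tested genes of each list (points, spread vertically at random), with the median of the list as a black bar and that of all tested genes, -0.47, as a red dashed line. The granulosa median of -4.64 lies lowest, and the germ cell and oocyte growth medians of 2.31 and 1.82 highest.

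NRF2 is a transcription factor that switches on genes of glutathione synthesis and detoxification when its inhibitor KEAP1 lets it go. Of 20 genes of this pathway 18 were tested, 8 with a positive and 10 with a negative log2 difference, none called, at a median of -0.73. That median less the median of all genes changed sign in 13 of 23 alternatives. The median itself was 0.12 without primordial NTY replicate 3, against -0.46 over all genes. Nfe2l2, which encodes NRF2, had 1546, 0 and 132 reads in primordial sham, 261, 1470 and 1 in primordial NTY, 638, 210 and 730 in primary sham and 2120, 2 and 21 in primary NTY, and a log2 difference of 1.61 (SE 4.08). Keap1 had -2.58 (SE 4.20). Nqo1, a classical NRF2 target, had no count in any of the 12 libraries.

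Slc7a11, the cystine importer and an NRF2 target, was 1 of the 18 tested with an unadjusted p under 0.05, against 11.8% of all tested genes. It had 129, 53183 and 604 reads in primordial sham, 0, 31 and 1 in primordial NTY, 1166, 1631 and 2433 in primary sham and 0, 6 and 4252 in primary NTY. Its primordial groups did not overlap and its primary groups did. From pooled levels it was 1770-fold lower under NTY in primordial follicles (95% counting interval 1260 to 2590) and 1.11-fold higher in primary follicles. Single libraries held nearly all reads of primordial sham (replicate 2) and of primary NTY (replicate 3). On the log2(CPM + 1) scale its primary level was 5.88 ± 0.57 under sham and 2.63 ± 4.19 under NTY (SD, n = 3). Its log2 difference was 10.65 (SE 3.79, edgeR p 0.00719, adjusted p 0.219). Gclc, the catalytic subunit of the enzyme that starts glutathione synthesis, had -5.07 (SE 3.11), and its modifier Gclm 3.53 (SE 3.56).

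Antioxidant enzymes were tested in 16 of 18 cases, 5 positive and 11 negative, at a median of -0.89, and none had an unadjusted p under 0.05. That median was -1.78 without primordial NTY replicate 3 and lay between -4.60 and 2.08 over the alternatives. Prdx1, a peroxiredoxin, was the steadiest of them, with 7260, 6904 and 5607 reads in primordial sham, 1905, 3701 and 4094 in primordial NTY, 11455, 6225 and 6668 in primary sham and 4663, 3829 and 6125 in primary NTY. Prdx1 had a log2 difference of 0.79 (SE 2.47). Sod1 and Sod2, the superoxide dismutases of cytosol and mitochondria, had log2 differences of 3.22 (SE 3.64) and -4.78 (SE 4.32).

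In the signalling that activates follicles, from Kit through PI3K and mTOR, all 21 genes were tested, 10 above and 11 at or below 0, at a median of 0.00, or 0.41 without primordial NTY replicate 3. Tsc1, which restrains mTOR, had 53, 415 and 25 reads in primordial sham, 4748, 2328 and 46 in primordial NTY, 4401, 11844 and 2680 in primary sham and 15, 104 and 496 in primary NTY. Its primary groups did not overlap and its primordial groups did, with a log2 difference of -8.67 (SE 3.83, edgeR p 0.0285, adjusted p 0.34). Mtor had 1.14 (SE 2.36) and Akt1 0.00 (SE 2.49).

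Of 39 proteasome subunits 34 were tested, 12 with a positive and 22 with a negative log2 difference, at a median of -1.01, or -0.60 without primordial NTY replicate 3. An unadjusted p under 0.05 was reached by 5 of 34, all negative, against 9.58% of all genes on that side: Psmb3, Psmd14, Psma6, Psmd7 and Psmb2. Psmb3 had 2408, 5569 and 1546 reads in primary sham against 0, 0 and 1 in primary NTY, a ratio of 6970-fold (95% counting interval 1250 to 275000), and 0, 3463 and 3295 against 6465, 3766 and 0 in the primordial groups. Psma6 had 8581, 15423 and 11797 reads in primary sham against 6, 0 and 0 in primary NTY. Both were high in all primary sham libraries and near 0 in all primary NTY libraries, at edgeR adjusted p-values of 0.202 and 0.232.

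Of 18 genes of the unfolded protein and stress response 17 were tested, 10 positive and 7 negative, at a median of 0.66. An unadjusted p under 0.05 was reached by Hsf1 on the positive and Dnajb9 on the negative side. That is 1 of 17 on each side, against 2.26% of all tested genes on the positive and 9.58% on the negative side. Hsf1, the regulator of the heat shock response, had 21506, 4950 and 446 reads in primordial sham, 1386, 834 and 1005 in primordial NTY, 887, 4646 and 2319 in primary sham and 6132, 16624 and 6984 in primary NTY. Its primary groups did not overlap, and its log2 difference was 5.69 (SE 2.60, edgeR p 0.0337, adjusted p 0.363). Dnajb9, a cochaperone of the endoplasmic reticulum, had 9, 0 and 0 reads in primordial sham, 5242, 0 and 0 in primordial NTY, 2590, 0 and 1415 in primary sham and 1, 0 and 10 in primary NTY. Single libraries held most of its reads, and its log2 difference was -16.67 (SE 5.83, edgeR p 0.00632, adjusted p 0.209). Hspa5, the chaperone BiP, had -0.44 (SE 1.66).

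Proliferation genes were tested in 17 of 18 cases, 12 positive and 5 negative, at a median of 1.34, with 0.18 (SE 3.73) for Mki67 and 0.13 (SE 2.5) for Top2a. Genes of the DNA damage checkpoint and apoptosis were tested in 17 of 20 cases, 8 positive and 9 negative, at a median of -0.51, with -1.25 (SE 3.71) for Trp63, which guards the oocyte genome, and -2.01 (SE 3.16) for Chek2. None of the genes of these lists had an unadjusted p under 0.05.

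Of 91 genes of cytosolic ribosomal proteins 85 were tested, 29 positive and 56 negative, at a median of -0.50. Without primordial NTY replicate 3 the signs were 38 and 48 and the median -0.18, against -0.46 over all genes. Rpl22l1 and Rps3a2 had an unadjusted p under 0.05, both negative, with edgeR adjusted p-values of 0.29 and 0.377. These are 2 of 85 genes, against 9.58% of all tested genes on that side. All 9 tested of 13 mitochondrially encoded genes had a negative log2 difference, from -2.83 for mt-Nd2 to -0.65 for mt-Nd6, at a median of -1.63. Their SE lay above the size of every one of these values, and mt-Nd2 had 19, 56 and 56 reads in primordial sham, 200, 320 and 299 in primordial NTY, 153, 70 and 424 in primary sham and 243, 17 and 168 in primary NTY. Its primordial groups did not overlap and its primary groups did.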

How the data were processed

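RNA sequencing of the 12 libraries of primordial and primary follicle oocytes, 3 in each of 4 groups taken from the titles, was analysed, and the 6 MII libraries were not. The authors deposited raw read counts (whole numbers) of 53715 genes and a table of TPM for 28252 of them. The submitters' processing notes name Trim Galore 0.4.1, TopHat2, featureCounts and mm10, and the handling of multi-mapped reads and strand is not given in the sources used here. Symbols came from the TPM table (28242) or GENCODE M21 (25378), and 95 genes had none. Read amplification before sequencing can spread the counts between replicates. Library totals were 15149564 to 29205503 counts, and at this depth the spread between replicates was large (common dispersion 3.59).

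Counts were fitted with edgeR 4.0.16 in R 4.3.3 (TMM, filterByExpr by group, robust quasi-likelihood, 4 group means, no replicate block), with Benjamini-Hochberg adjustment over all 10522 genes and a threshold of 0.05. SEs were approximated from the log2 difference and its F statistic. Such an SE is uncertain where the log2 difference is near 0. Fold changes between groups are ratios of pooled CPM, with 95% exact conditional binomial counting intervals and a floor of 3 counts over a group. Named genes were all called genes, the 12 with the smallest p per side with a mean of at least 10 CPM, up to 5 per side separated in opposite directions, and members of the gene lists, some of which are not reported here. Counts of genes detected were compared by an exact permutation of treatment labels within stages in numpy 2.4.6. Alternatives used RLE factors, plain library totals, DESeq2 1.42.0 with and without its Cook filter, limma 3.58.1 on voom weights or log2(TPM + 1) where 3 or more libraries reached a TPM of 1, other filters, a replicate block, summed primary NTY replicates 2 and 3, and each library left out. List medians with floored levels were added after seeing the data. The edgeR fit was run on simulated data at a low dispersion and at a dispersion near that of these data. The DESeq2, voom and TPM fits were run on simulated data at the low dispersion only, so not at the spread seen here. The comparison, gene lists and rules were chosen with earlier results of these data known.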

Additional observations from a re-analysis of the deposited data

Results flagged for a closer look

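The effect of NTY on H2ac4 differed between primordial and primary follicles by the test of the difference itself, with a Benjamini-Hochberg adjusted p of 0.0238 in edgeR's quasi-likelihood test and a log2 difference of -12.53. NTY libraries lay above sham libraries in 3 of 3 primordial replicates, and the primary groups overlapped. The adjusted p was 0.18 without primordial NTY replicate 3 and 0.0659 without primary NTY replicate 3, and over 20 alternatives it lay between 5.83e-05 and 0.361.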

How the results depend on the processing

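The number of genes called for the difference was 1 in the fit reported, 1 with RLE factors, 1 with limma on log2(TPM + 1) and 1 with the replicate block (840 genes at an unadjusted p under 0.05). It was 0 with plain library totals (1270 genes at an unadjusted p under 0.05), 0 among the 1349 genes that reached 10 counts throughout (69 genes), 0 with primary NTY replicates 2 and 3 summed (1310 genes), 6 with voom and sample weights, and 11 with any count as filter. DESeq2 called 1216 genes without and 742 with its Cook filter. Leaving out 1 library gave 0 to 8 calls, 0 without primordial NTY replicate 3 (1449 genes at an unadjusted p under 0.05) and 8 without primordial NTY replicate 1. The adjusted p of H2ac4 was 0.0665 with plain totals, 0.146 with voom, 0.361 with TPM and 0.0529 with replicates 2 and 3 summed, and DESeq2 with its Cook filter gave it no adjusted p. The genes called with voom and with TPM were therefore other genes. The cause of these differences between settings was not tested. None of the 30 named genes changed sign in any alternative. They were picked from the main fit of these same counts, so this is no separate support.

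The numbers of genes separated in opposite directions were 67 and 9. With a library left out, where fewer libraries have to be separated, they were 78 to 199 and 11 to 28, and the smaller number was 4 with plain totals and 5 with TPM. The difference in genes detected was -6379 to -3411 with a library left out, the largest in size without primordial NTY replicate 3 at an exact permutation p of 0.01. Any other library left out gave an exact permutation p of 0.055 to 0.205. With at least 10 counts it was -3237 (exact permutation p 0.14), and flipping labels within same-numbered pairs, as a replicate block, gave an exact p of 0.156. Same-numbered libraries did not deviate together (r of -0.061 to 0.0668 in 18 pairs, 0 over 0.1). With so few libraries a group, this cannot exclude a shared animal or batch, which the labels do not state. Depth limits values near the floor of 3 counts over a group.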
